A study of Mus musculus with 3 samples.

Results

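The RNA-seq table of E6.5 embryos was searched by symbol for 8 genes of the mouse prolactin family, *Prl8a2*, *Prl3c1*, *Prl3d1*, *Prl3d2*, *Prl3d3*, *Prl2c2*, *Prl4a1* and *Prl6a1*, and all 8 were found among its 23421 genes. The table held 19 other genes of the family. RNA had been taken from wild-type, *tw18*/+ and *tw18*/*tw18* embryos, all obtained from matings of *tw18*/+ mice and labelled with the strain 129/SvEv, and each genotype was represented by 1 library. The study itself allows that its embryos may not have been uniformly inbred. *tw18* is a recessive lethal allele of the mouse *t* haplotype and carries a deletion on Chr 17 that includes *Ppp2r1a*, the gene for the scaffold subunit of phosphatase PP2A. The labels give the tissue as epiblast, while the methods of the study describe the embryo proper, that is epiblast with the surrounding visceral endoderm, cut away from the extra-embryonic tissue that was used for genotyping. No difference below has a replicate check, and no p-value is given.

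Prolactin is a pituitary hormone, but in rodents its gene has multiplied into a cluster whose other members are expressed mainly in the decidua and in trophoblast. The decidua is the uterine stroma that differentiates around the implanted embryo, and trophoblast giant cells are the large polyploid cells that border it. Some members, such as the placental lactogens encoded by the *Prl3d* genes, act on the prolactin receptor and take over from pituitary prolactin in maintaining the corpus luteum, whereas many of the others do not bind this receptor. The usual sources of these hormones therefore lie outside the tissue that the labels name.

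In GENCODE M21 (GRCm38), 7 of the 8 members lie within the main prolactin cluster on Chr 13, between 27094190 and 28023559. From proximal to distal these are *Prl3d1* (27094190 to 27100258), *Prl3d2* (27121698 to 27127555), *Prl3d3* (27156790 to 27162593), *Prl3c1* (27196659 to 27203749), *Prl6a1* (27312627 to 27319252), *Prl8a2* (27345673 to 27354216) and *Prl4a1* (28016212 to 28023559), all on the plus strand. *Prl2c2* lies apart from them at 12996125 to 13005383, on the minus strand. None of them is on the chromosome of the deletion. Their longest coding transcripts have 5 exons, or 6 for *Prl8a2*, and measure 842 to 1093 bases.

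The 3 *Prl3d* genes are near-copies, which bears on how far their values can be told apart. Their coding sequences are all 672 bases long, differ at 16 positions between the 3 genes and are 97.9% to 98.7% identical in pairs. The stretch from coding base 55 to coding base 114 is shown because no other 60 bases hold more differences, with the 3 differing positions in capitals.
*Prl3d1*: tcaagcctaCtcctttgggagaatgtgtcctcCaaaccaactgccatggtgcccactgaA
*Prl3d2*: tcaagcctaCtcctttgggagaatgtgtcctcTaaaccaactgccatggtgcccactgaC
*Prl3d3*: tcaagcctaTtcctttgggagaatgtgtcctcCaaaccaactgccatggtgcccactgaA
The longest run with no difference measured 90 bases, more than the 50 bases of a read. Of the 50-base words in their transcripts, 57.1% of *Prl3d1*, 66.9% of *Prl3d2* and 68.2% of *Prl3d3* occur in another gene, always another *Prl3d* gene, so fragments could have been divided among them. For *Prl2c2* this share was 89.5%, mostly shared with *Prl2c3*, whose coding sequence is 99.6% identical. It was 9.96% for *Prl6a1*, and 0 for *Prl8a2*, *Prl3c1* and *Prl4a1*.

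The sequences upstream of the *Prl3d* genes are shown because these 3 genes had the same order of levels over the libraries. *Prl6a1* and another family gene, *Prl8a9*, had this order too, though nearly level between some libraries. *Prl2c5* had it as well, with an FPKM of 3.23 in *tw18*/*tw18*, 0.104 in wild type (about 1 fragment) and 0 in *tw18*/+. GATA factors and AP-1 (dimers of Jun and Fos proteins) are known regulators of placental lactogen genes in trophoblast giant cells, and the capitals mark, on either strand, the GATA words (the word AGATAA, the word AGATAG, the word TGATAA or the word TGATAG) and the AP-1 word (the letters TGANTCA). Each line gives the 250 bases before the RefSeq start, on the plus strand of GRCm38.p6, at chr13:27093939-27094188, chr13:27121445-27121694 and chr13:27156544-27156793.
*Prl3d1*: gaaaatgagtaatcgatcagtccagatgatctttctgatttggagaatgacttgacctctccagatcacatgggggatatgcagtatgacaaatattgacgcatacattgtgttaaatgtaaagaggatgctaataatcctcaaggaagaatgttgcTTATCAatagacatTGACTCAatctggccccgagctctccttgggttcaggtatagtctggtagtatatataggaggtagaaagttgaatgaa
*Prl3d2*: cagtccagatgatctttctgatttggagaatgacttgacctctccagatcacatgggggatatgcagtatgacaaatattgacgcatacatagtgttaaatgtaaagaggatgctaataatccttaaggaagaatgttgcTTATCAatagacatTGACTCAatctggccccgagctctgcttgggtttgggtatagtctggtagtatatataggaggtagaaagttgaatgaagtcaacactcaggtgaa
*Prl3d3*: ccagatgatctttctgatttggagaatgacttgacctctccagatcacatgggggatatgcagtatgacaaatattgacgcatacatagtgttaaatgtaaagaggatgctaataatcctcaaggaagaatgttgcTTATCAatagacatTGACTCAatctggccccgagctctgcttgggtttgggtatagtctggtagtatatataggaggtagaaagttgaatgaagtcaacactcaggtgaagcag
All 3 windows held 1 GATA word and 1 AP-1 word, and the AP-1 word began 14 bases after the GATA word in each. Of 32851 such windows in the RefSeq promoter table, 26.5% held a GATA word and 6.75% the AP-1 word. The windows of *Prl3d2* and *Prl3d3* were 96.5% identical, and that of *Prl3d1* was 85.4% and 83.0% identical to them. As near-copies, the 3 windows are not separate observations, and a link of the words to the levels was not tested. The GATA word began 93 bases before the annotated start of *Prl3d1*, 110 before that of *Prl3d2* and 114 before that of *Prl3d3*. The window of *Prl3c1*, at chr13:27196410-27196659 on the plus strand, held neither word and is shown for comparison.
*Prl3c1*: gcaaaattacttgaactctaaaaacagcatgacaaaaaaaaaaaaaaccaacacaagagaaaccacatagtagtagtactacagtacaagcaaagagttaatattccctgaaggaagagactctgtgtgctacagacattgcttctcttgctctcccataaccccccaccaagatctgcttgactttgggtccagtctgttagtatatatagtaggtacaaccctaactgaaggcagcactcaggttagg
A second annotated start of *Prl3c1* had a GATA word and no AP-1 word. The windows of *Prl6a1* and *Prl4a1* held 2 GATA words each and no AP-1 word.

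FPKM, the fragments per kilobase of transcript scaled to the mapped fragments of the library, allows levels to be compared between genes. The FPKM of *Ppp2r1a* was 146 in wild type, 81.7 in *tw18*/+ and 12.8 in *tw18*/*tw18*. The order was that of the labels, but the level in *tw18*/*tw18* was not 0, although the deletion takes in this gene on both chromosomes, and where these fragments came from was not tested. From the spacing of low FPKM values, the depth of *tw18*/+ was estimated at 1.41 times and that of *tw18*/*tw18* at 1.39 times the depth of wild type. The estimate takes FPKM as scaled to the mapped fragments of each library, while the normalization used is not given. In *tw18*/*tw18* 1 of the most abundant genes of the other libraries, *Lars2*, was listed at 0, and the FPKM values summed to 383409 against 444064 in wild type and 455078 in *tw18*/+. Each of 8 listed epiblast genes had an FPKM above 5 in all libraries, *Pou5f1* with 628, 721 and 274 in wild type, *tw18*/+ and *tw18*/*tw18*, though *Sox2* (5.10) and *Nanog* (5.35) were close to 5 in *tw18*/*tw18*. Visceral endoderm genes, such as *Apoa1* with 246, 233 and 337, were detected as well.

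*Prl8a2*, which encodes decidual prolactin-related protein, a secreted product of decidual cells, was the most abundant member in every library. Its FPKM was 1504 in wild type, 155 in *tw18*/+ and 377 in *tw18*/*tw18*, from about 17534, 2555 and 6113 fragments. In wild type it ranked 25 of all 23421 genes, against 423 in *tw18*/+ and 129 in *tw18*/*tw18*. The level in wild type was 9.70 times that in *tw18*/+ and 3.99 times that in *tw18*/*tw18*, log2 ratios of -3.28 and -1.99. Of the mutant libraries, *tw18*/*tw18* had the higher level, by a log2 ratio of 1.28. In these bulk libraries fewer cells of a type and less RNA per cell cannot be told apart, here and for every gene below.

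*Prl3c1*, another product of decidual cells, followed the same order at a lower level. Its FPKM was 121 in wild type, 13.2 in *tw18*/+ and 25.2 in *tw18*/*tw18*. The log2 ratio against wild type was -3.20 in *tw18*/+ (counting interval -3.43 to -2.98) and -2.27 in *tw18*/*tw18* (-2.44 to -2.10). Between *tw18*/*tw18* and *tw18*/+ it was 0.93, just under the threshold of 1. The FPKM of *Prl8a2* was 12.4 times that of *Prl3c1* in wild type, 11.8 times in *tw18*/+ and 15.0 times in *tw18*/*tw18*. This proportion thus moved by far less than the levels of either gene. The pair made up 86.8% of the summed FPKM of the 8 members in wild type, 55.6% in *tw18*/+ and 49.0% in *tw18*/*tw18*.

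**Figure D1:**
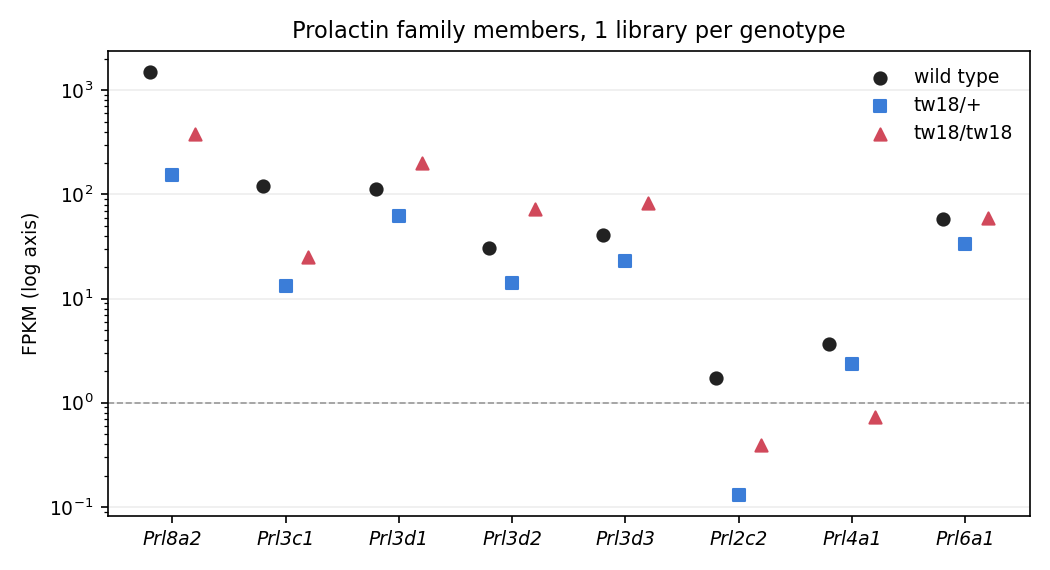
FPKM (log axis) of the 8 members in the wild-type (circles), *tw18*/+ (squares) and *tw18*/*tw18* (triangles) libraries, 1 library each, with a dashed line at an FPKM of 1. *Prl8a2* and *Prl3c1* were highest in wild type (1504 and 121), whereas the 3 *Prl3d* genes were highest in *tw18*/*tw18* (202, 73.3 and 82.8).

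The *Prl3d* genes encode placental lactogen 1 and its near-copies, the lactogenic hormones that trophoblast giant cells secrete after implantation. *Prl3d1* stood at an FPKM of 113 in wild type, 61.5 in *tw18*/+ and 202 in *tw18*/*tw18*. *Prl3d2* stood at 30.3, 14.0 and 73.3 in that order. *Prl3d3* stood at 40.7, 22.9 and 82.8. All were highest in *tw18*/*tw18*, unlike *Prl8a2* and *Prl3c1*, and lowest in *tw18*/+, like *Prl8a2* and *Prl3c1*. Against wild type, *tw18*/*tw18* was higher by log2 ratios of 0.83 for *Prl3d1*, 1.27 for *Prl3d2* and 1.02 for *Prl3d3*, so that *Prl3d1* stayed under the threshold of 1 and *Prl3d3* was close to it (counting interval 0.86 to 1.19). Against *tw18*/+, the log2 ratios were 1.72, 2.39 and 1.85, all past the threshold. *tw18*/+ was lower than wild type by log2 ratios of -0.88, -1.11 and -0.83.

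Within each library *Prl3d1* took the largest part of the *Prl3d* sum, 61.5% in wild type, 62.5% in *tw18*/+ and 56.4% in *tw18*/*tw18*. *Prl3d2* took the smallest, with 16.4%, 14.2% and 20.5%. As fragments can be divided among the copies, the sum is the safer value. It was 184 in wild type, 98.4 in *tw18*/+ and 358 in *tw18*/*tw18*. Its log2 ratio against wild type was 0.96 for *tw18*/*tw18* and -0.91 for *tw18*/+, neither past the threshold. *Prl3b1*, which encodes the placental lactogen of later gestation, was listed at 0 in all libraries, where 3 fragments would give an FPKM of 0.197 to 0.279.

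*Prl6a1*, expressed in both decidua and trophoblast, reached an FPKM of 57.8 in wild type, 33.2 in *tw18*/+ and 59.1 in *tw18*/*tw18*. Wild type and *tw18*/*tw18* were nearly equal, with a log2 ratio of 0.03 (counting interval -0.10 to 0.16). *tw18*/+ was lower than wild type by a log2 ratio of -0.80 and *tw18*/*tw18* higher than *tw18*/+ by 0.83, neither past the threshold. *tw18*/+ thus had the lowest level, as for the *Prl3d* genes, *Prl8a2* and *Prl3c1*. With 1 library each, the order of wild type and *tw18*/*tw18* could not be told.

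*Prl4a1*, a trophoblast product, was the only member lowest in *tw18*/*tw18*. Its FPKM was 3.65 in wild type, 2.37 in *tw18*/+ and 0.735 in *tw18*/*tw18*, from about 39, 36 and 11 fragments. The log2 ratio of *tw18*/*tw18* was -2.31 against wild type (counting interval -3.41 to -1.31) and -1.69 against *tw18*/+ (-2.81 to -0.68). For *tw18*/+ against wild type it was -0.62 with an interval of -1.31 to 0.08, so counting error alone left its direction uncertain. Within wild type *Prl3d1* was 31.0 times as abundant as *Prl4a1*, and within *tw18*/*tw18* 275 times.

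*Prl2c2* encodes proliferin, an angiogenic glycoprotein of trophoblast giant cells, and had the lowest level of the members. Its FPKM was 1.74 in wild type, 0.131 in *tw18*/+ and 0.396 in *tw18*/*tw18*, from about 18, 2 and 6 fragments. Against wild type the log2 ratio was -3.73 in *tw18*/+ (counting interval -6.82 to -1.61) and -2.14 in *tw18*/*tw18* (-3.68 to -0.66). *tw18*/*tw18* and *tw18*/+ were both under an FPKM of 1 and could not be told apart at this depth (1.59, interval -0.87 to 4.95). The other *Prl2c* genes of the table did not all share its order. The FPKM of *Prl2c4* was 2.60, 0.110 and 0.874 in wild type, *tw18*/+ and *tw18*/*tw18*, in the order of *Prl2c2*. *Prl2c5* was instead highest in *tw18*/*tw18*, at 0.104 in wild type, listed at 0 in *tw18*/+ and at 3.23 in *tw18*/*tw18*. *Prl2c3* had values of 0.0017 to 0.014, below what 1 fragment is worth. *Prl2c4* had no GENCODE M21 entry, so its likeness to *Prl2c2* was not measured. RefSeq gives its symbol as an older name of *Prl2c3*, so these entries may not be separate genes. The sum of the 5 *Prl2c* entries of the table was 4.45 in wild type, 0.255 in *tw18*/+ and 4.50 in *tw18*/*tw18*. The order of *Prl2c2* alone is thus uncertain, and this sum had wild type and *tw18*/*tw18* at similar levels.

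**Figure D2:**
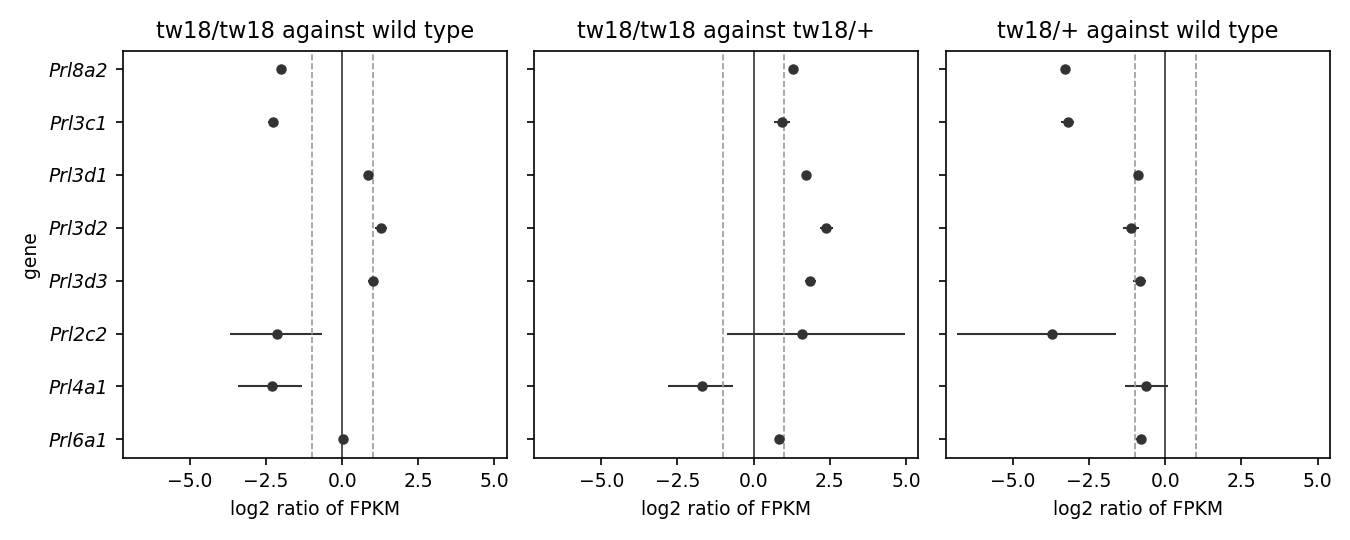
Log2 ratio of FPKM for each member in 3 comparisons of libraries, with horizontal bars for the 95% counting interval of the estimated fragments and dashed lines at -1 and 1. The bars cover counting error only. They are wide for *Prl2c2* and *Prl4a1*, and all 8 points lie below 0 for *tw18*/+ against wild type.

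Between *tw18*/*tw18* and wild type, 4 of the 8 members (*Prl8a2*, *Prl3c1*, *Prl2c2*, *Prl4a1*) were lower in *tw18*/*tw18* by a log2 ratio of at least 1, where 6.94% of all 12917 genes tested were lower, and 2 (*Prl3d2*, *Prl3d3*) were higher, where 15.1% of all genes were higher. The median log2 ratio of the members was -0.98, against -0.016 over the 12625 tested genes that were above 0 in both libraries. The members' median stands between members that went in opposite directions, 4 below 0 and 4 above, *Prl6a1* by only 0.03. Between *tw18*/*tw18* and *tw18*/+, 4 of the 7 members tested (*Prl8a2* and the *Prl3d* genes) were higher in *tw18*/*tw18*, where 14.9% of 12846 genes were higher, and *Prl4a1* was lower, where 5.65% were lower. The median of the 7 was 1.28, against 0.0033 over the 12703 tested genes above 0 in both libraries. Between *tw18*/+ and wild type, 4 members (*Prl8a2*, *Prl3c1*, *Prl3d2*, *Prl2c2*) were lower in *tw18*/+, where 5.02% of 12426 genes were lower, and 0 were higher, where 4.7% were higher. The median of the members was -0.999, against 0.0021 over the 12281 tested genes above 0 in both libraries. These comparisons share libraries, and the *Prl3d* genes share fragments, so the counts are not independent of each other. The *Prl3d* sum was past the threshold in neither comparison with wild type (0.96 and -0.91), although *Prl3d2* and *Prl3d3* are counted above. With the wild-type library in 2 of the comparisons, its high *Prl8a2* and *Prl3c1* enter both.

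Summed over the 8 members, the FPKM was 1873 in wild type, 302 in *tw18*/+ and 821 in *tw18*/*tw18*. This sum mostly reflects *Prl8a2*. Without it the sum was 369, 147 and 444, so that *tw18*/*tw18* stood above wild type by a log2 ratio of 0.27 instead of below it by -1.19.

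**Figure D3:**
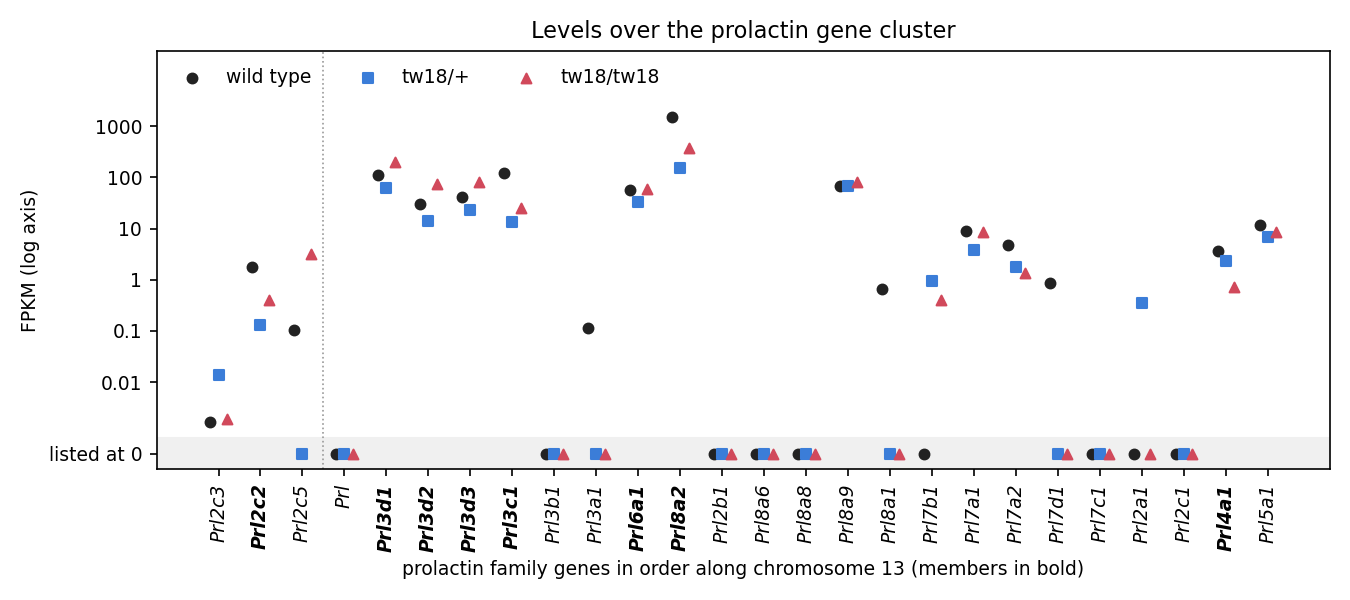
FPKM (log axis, with a grey band for values listed at 0) of the 26 prolactin family genes with a GENCODE position, in their order along Chr 13, members in bold. The dotted line separates 3 *Prl2c* genes, *Prl2c2* among them, from the main cluster. *Prl3b1*, listed at 0 in all libraries, stands next to *Prl3c1*, with 13.2 to 121.

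Among the 19 other family genes, 6 reached an FPKM of 1 in at least 1 library and 7, including *Prl* itself, were listed at 0 in all. *Prl8a9*, a placental member that shares no 50-base word with another gene, stood at an FPKM of 68.9 in wild type, 67.8 in *tw18*/+ and 82.2 in *tw18*/*tw18*. Its largest log2 ratio between libraries was 0.28. The libraries thus differed far less in this gene than in *Prl8a2* of the same subfamily, with its 9.70-fold difference between wild type and *tw18*/+. The FPKM of *Prl5a1* was 11.8, 6.70 and 8.48, and that of *Prl7a1* 9.06, 3.74 and 8.70 in that order. Both were lowest in *tw18*/+, *Prl7a1* by a log2 ratio of -1.28 against wild type. *Prl7a2*, next to *Prl7a1*, was at 4.88, 1.79 and 1.35, with log2 ratios of -1.45 in *tw18*/+ and -1.86 in *tw18*/*tw18*. Against wild type, 1 of the 6 genes tested (*Prl2c5*) was higher and 2 (*Prl2c4*, *Prl7a2*) were lower in *tw18*/*tw18*, where 15.1% of all genes were higher and 6.94% lower. For *tw18*/+ against wild type, 3 of 5 (*Prl2c4*, *Prl7a1*, *Prl7a2*) were lower and 0 higher, where 5.02% and 4.7% of all genes were.

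The genes listed for the reception and transmission of the lactogenic signal went in both directions. The list also held *Igf2r* and *Ghr*, which encode other receptors and were past the threshold in no comparison. *Prlr*, the prolactin receptor, was at an FPKM of 3.66 in wild type, 4.38 in *tw18*/+ and 2.83 in *tw18*/*tw18*. Of the 10 genes listed for the receptor and its signalling, 1 was higher in *tw18*/*tw18* than in wild type, the receptor-associated kinase gene *Jak2* (log2 ratio 1.28), and 1 was lower, the feedback inhibitor gene *Socs2* (-2.38), where 15.1% of all genes were higher and 6.94% lower. The FPKM of *Socs2* was 26.3 in wild type, 35.0 in *tw18*/+ and 5.05 in *tw18*/*tw18*. In *tw18*/+, *Stat5a* (-1.67) and *Socs1* (-1.07) were lower than in wild type and 0 genes were higher, where 5.02% of all genes were lower and 4.7% higher. Both had an FPKM under 1 in *tw18*/+, 0.719 and 0.681. Between *tw18*/*tw18* and *tw18*/+, 3 of 9 tested were higher in *tw18*/*tw18*, *Jak2* (1.30), *Stat5a* (1.71) and the inhibitor gene *Socs3* (1.20), where 14.9% of all genes were higher, and *Socs2* was lower (-2.79), where 5.65% were. The median difference of log2(FPKM + 1) over this list was 0.15 for *tw18*/*tw18* and 0.096 for *tw18*/+ against wild type, where all genes tested had -0.0074 and 0.0026.

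Of 10 listed regulators of placental lactogen and proliferin genes, 8 were higher in *tw18*/*tw18* than in wild type and 0 lower, where 15.1% of all genes were higher and 6.94% lower, with *Jun* and *Jund* under the threshold and *Pparg* counted as higher because it was listed at 0 in wild type and had an FPKM of 1.18 in *tw18*/*tw18*. *Gata3*, a GATA factor of trophoblast, was at an FPKM of 1.89 in wild type, 3.45 in *tw18*/+ and 10.8 in *tw18*/*tw18*. *Hand1*, required for giant cell formation, had 9.31, 14.0 and 34.6. *Fosl1*, an AP-1 subunit of giant cells, had 1.23, 0.304 and 3.46. Between *tw18*/+ and wild type, 1 of 9 genes tested (*Fosl1*) was lower and 0 higher, where 5.02% of all genes were lower and 4.7% higher. The *Prl3d* sum was lower in *tw18*/+ by a log2 ratio of -0.91, and a link between it and the regulators was not tested. Over the listed regulators, the median difference of log2(FPKM + 1) was 1.11 for *tw18*/*tw18* and -0.057 for *tw18*/+ against wild type. Several of these genes also act outside trophoblast, and *Hand1* and *Tfap2c* are counted again below, *Hand1* among the trophoblast genes and *Tfap2c* among those of extra-embryonic ectoderm.

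Marker lists without prolactin genes were set beside the members. Their counts for *tw18*/*tw18* against wild type stand beside 15.1% of all genes higher and 6.94% lower. Those for *tw18*/+ against wild type stand beside 4.7% of all genes higher and 5.02% lower. The 12 decidual stroma genes summed to an FPKM of 218 in wild type, 130 in *tw18*/+ and 446 in *tw18*/*tw18*, and none was listed at 0. Between *tw18*/*tw18* and wild type, 9 of them were higher, such as *Hoxa11* (log2 ratio 3.07), *Wnt4* (2.73) and *Cyp11a1* (1.76), and 1 was lower, *Htra1* (-1.08). The sum had the order of the *Prl3d* genes, but not every gene of the list did. Between *tw18*/+ and wild type, 0 of the 12 were higher and 1 (*Htra1*) lower by the threshold, 5 lay above and 7 below wild type, and the median difference of log2(FPKM + 1) was -0.072. Between *tw18*/*tw18* and *tw18*/+, 11 of the 12 were higher and 0 lower, where 14.9% of all genes were higher and 5.65% lower. The log2 ratio of the list's sum was then 1.78, and that of the summed *Prl8a2* and *Prl3c1* was 1.26, both higher in *tw18*/*tw18*. *Hoxa11*, with an FPKM of 3.67 in wild type, 6.87 in *tw18*/+ and 30.8 in *tw18*/*tw18*, and *Wnt4*, with 1.69, 3.32 and 11.2, were lowest in wild type. *Cryab*, a small heat shock protein gene, had 93.8, 48.6 and 167, and with *Htra1* it made most of the drop of the sum in *tw18*/+. *Htra1*, a secreted serine protease, had 46.8 in wild type, 9.72 in *tw18*/+ and 22.1 in *tw18*/*tw18*, the order of *Prl8a2* and *Prl3c1*. The 12 genes listed for trophoblast giant cells and ectoplacental cone summed to 65.0, 66.0 and 105 in that order. Of these, 5 of 9 tested were higher and 1 (*Mdfi*) lower in *tw18*/*tw18* than in wild type, while *Tpbpb* and *Ctsq* were listed at 0 in all libraries and *Tpbpa*, a defining marker of the ectoplacental cone, had at most 0.416.

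The 6 genes of extra-embryonic ectoderm summed to 25.2 in wild type, 21.7 in *tw18*/+ and 50.5 in *tw18*/*tw18*, with 5 higher in *tw18*/*tw18* than in wild type and 0 lower. The 8 epiblast genes summed to 1778, 1894 and 897, with 5 lower in *tw18*/*tw18* than in wild type, and the 8 visceral endoderm genes to 748, 725 and 985, with 0 past the threshold. The 6 endothelial genes summed to 36.4, 23.5 and 76.0, with 4 higher and 0 lower in *tw18*/*tw18* than in wild type. In *tw18*/+, *Tek* and *Emcn* were higher and *Pecam1* and *Kdr* lower than in wild type, where 4.7% of all genes were higher and 5.02% lower. The 5 erythroid genes in the table, among them near-identical globin copies, summed to 52.5, 56.3 and 177. The 8 genes of uterine natural killer cells summed to 3.91, 5.22 and 5.65, and *Ncr1* was listed at 0 in all libraries. The part of decidual, trophoblast or other cells in the members' differences was not tested.

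**Figure D4:**
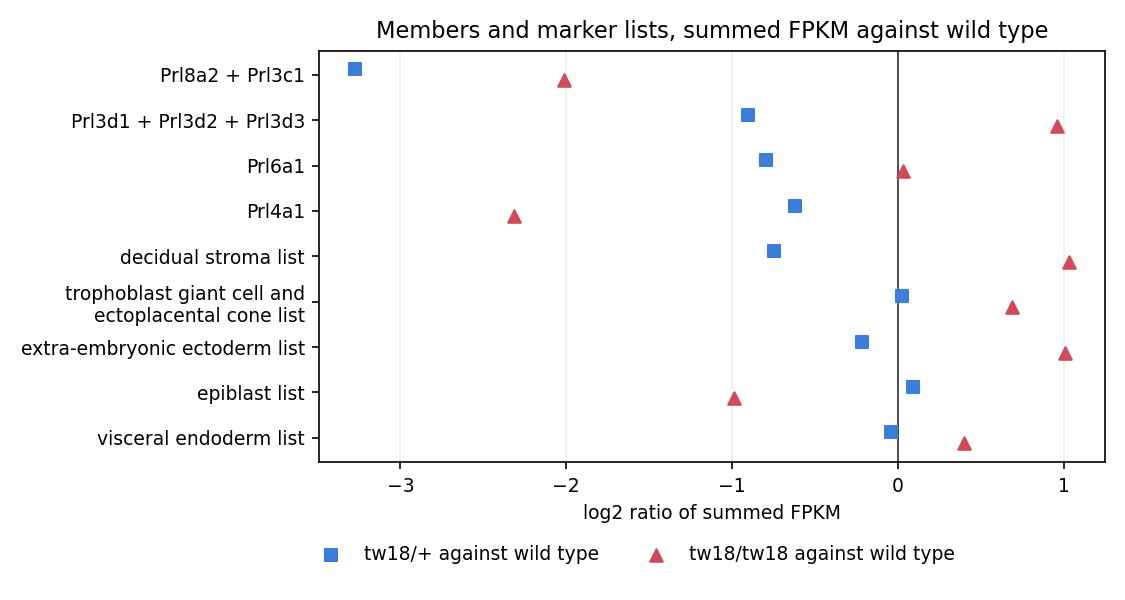
Log2 ratio of summed FPKM against wild type for members and for marker lists without prolactin genes, in *tw18*/+ (squares) and *tw18*/*tw18* (triangles). In *tw18*/*tw18* the pair of *Prl8a2* and *Prl3c1* stood at -2.01, while the decidual stroma list stood at 1.03 and the *Prl3d* genes at 0.96. Against *tw18*/+ (not drawn), *tw18*/*tw18* was higher in all of them, by 1.26, 1.78 and 1.87 in that order.

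For likeness, the differences of log2(FPKM + 1) of *tw18*/+ and *tw18*/*tw18* from wild type were compared with those of 13110 other genes, over 3 libraries only. Nearest to *Prl8a2* were *Tpsab1*, *Timp3*, *Rln3*, *Mir302d* and *Mir3096*, at distances of 0.48 to 0.96. *Timp3*, an inhibitor of matrix metalloproteinases, was the most abundant of them, with an FPKM of 210 in wild type, 22.3 in *tw18*/+ and 81.9 in *tw18*/*tw18*. *Tpsab1*, a mast cell tryptase, had 12.8, 0.958 and 2.10, and the microRNA genes were listed at 0 in both mutant libraries. Nearest to the sum of the members were *Slco2a1*, *Gm2a*, *Rln3*, *Htra1* and *Il13ra2*, at distances of 0.20 to 0.49. *Gm2a*, which encodes the lysosomal GM2 activator, was at an FPKM of 302 in wild type, 52.9 in *tw18*/+ and 160 in *tw18*/*tw18*, and the prostaglandin transporter gene *Slco2a1* had 33.1, 5.32 and 14.4.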

How the data were processed

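RNA of 3 E6.5 samples, 1 library for each genotype, was measured by strand-specific RNA-seq. The authors mapped 50-base paired-end reads to mm10 (GRCm38) with TopHat, calculated FPKM values with Cuffdiff and deposited them in 1 table. The annotation, the library normalization and the number of embryos per library are not given in the sources used here. FPKM is relative to the rest of a library, so an abundant gene lowers the other values in it. Samples were grouped by their genotype label.

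The members and lists were chosen with earlier results of these data known. Named were the members, other family genes reaching an FPKM of 1, the listed genes and, for *Prl8a2* and the member sum, the 5 nearest genes. *Prl*, *Prl3b1*, *Prl2c3*, *Ppp2r1a* and *Lars2* are named outside this rule. Log2 ratios have no pseudocount unless stated. A gene was past the threshold where 1 value was at least 2 times the other (a log2 ratio of 1) and the higher value was at least 1. A value listed at 0 counted where the other was at least 1. With 1 library per genotype no test was run.

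Fragment numbers are estimates from the spacing of low FPKM values in genes with a single GENCODE M21 transcript of at least 500 bases, less 150 bases for the fragment. They used 177 to 272 values per library, 76.6% to 78.0% of them within 0.2 of a whole number, and each member's longest protein-coding transcript. Intervals are exact 95% conditional binomial intervals and cover counting error only, since PCR copies are not independent molecules. RefSeq promoters (GRCm38.p6) were found for 6 of the 8 members. Alternatives were other pseudocounts, filters, thresholds, scalings and allowances. Python 3.11.15, numpy 2.4.6, pandas 2.3.3, scipy 1.17.1, Biopython 1.88 and matplotlib 3.10.9 were used.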

Additional observations from a re-analysis of the deposited data

How the results depend on the processing

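With a log2 threshold of 2, the members past the threshold fell from 6 to 3 for *tw18*/*tw18* against wild type, 0 higher and 3 lower. Of all genes, 5.76% were then higher and 2.28% lower. The 3 members were *Prl3c1*, *Prl2c2* and *Prl4a1*, of which *Prl2c2* and *Prl4a1* had about 6 and 11 fragments in *tw18*/*tw18*. *Prl8a2*, at -1.99, fell just short of this threshold. For *tw18*/*tw18* against *tw18*/+ the members fell from 5 to 1, 1 higher and 0 lower, where 4.75% of all genes were higher and 1.52% lower. Under the other alternatives these counts ranged from 4 to 7 in both comparisons, and from 3 to 4 for *tw18*/+ against wild type. The all-gene shares then ranged from 8.96% to 24.2% higher and 4.11% to 10.8% lower for *tw18*/*tw18* against wild type. Against *tw18*/+ they ranged from 9.18% to 21.4% higher and 2.92% to 12.1% lower. For *tw18*/+ against wild type they ranged from 1.12% to 15.8% higher and 1.63% to 9.91% lower. Rescaling to equal FPKM sums raised *tw18*/*tw18* by 0.21 on the log2 scale against wild type and by 0.25 against *tw18*/+. It took *Prl3d1* past the threshold against wild type (1.05) and *Prl3c1* (1.18) and *Prl6a1* (1.08) past it against *tw18*/+. Over all genes, rescaling moved the share of calls that were higher in *tw18*/*tw18* from 68.5% to 79.8% against wild type and from 72.5% to 84.3% against *tw18*/+. Without *Prl3d1*, *Prl3d2* and *Prl3d3* the summed FPKM of the members was 1689 in wild type, 204 in *tw18*/+ and 463 in *tw18*/*tw18*. Allowances of 0 and 200 bases moved the fragment numbers of members with at least 20 fragments by -5.41% to 12.9%. No paired analysis was possible because each genotype had 1 library. No spread between embryos can be given, and depth limits *Prl2c2* and *Prl4a1*, whose lowest libraries held about 2 and 11 fragments.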
